A study of Mus musculus with 12 samples.

Results

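The tripartite motif (TRIM) genes of mouse macrophage-like cells were followed through exposure to lipopolysaccharide, to microparticles and to both. Every row of the expression table whose gene symbol begins with Trim and a digit was taken, which gave 40 of 11762 rows. All 40 reached 1 CPM (a read count scaled to a common library total) in at least 3 libraries and entered the test. Trim30d, Trim30b and Trim43c did so only through the libraries that had received lipopolysaccharide, as 0, 2 and 1 of their other 6 libraries reached 1 CPM, so an LPS difference of these genes was favoured by the filter. TRIM genes with no row in the table, Trim5, Trim6 and Trim12a of the chromosome 7 cluster among them, were not analysed here.

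RNA was sequenced from J774A.1, an established macrophage-like line from BALB/c mice. The 4 groups were LPS+MP (lipopolysaccharide with microparticles), LPS (lipopolysaccharide alone), MP (microparticles alone) and control (mock-treated cells), each with 3 replicates that the series describes as biological. No genetic change or other agent is named for any group, and the material, dose and exposure time of the particles and of LPS are not known from the labels. The line is a tumour-derived, continuously dividing culture, and all 12 libraries come from it.

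TRIM proteins share an amino-terminal RING finger, B-box zinc fingers and a coiled coil, followed by a carboxy-terminal part that differs between subfamilies and binds the target. Most are ubiquitin ligases, in which the RING finger brings a ubiquitin-conjugating enzyme to the bound protein. In macrophages many of them act in innate immunity: some switch sensors of viral RNA and DNA on or off, some act directly on viruses, and part of the family is induced by interferon. LPS, from the envelope of Gram-negative bacteria, engages TLR4 and leads to signalling through NF-kB and to interferon beta.

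Stretches upstream of or just after the start of 6 TRIM genes are shown because they hold the short letters bound by interferon-activated factors (interferon-stimulated response element, ISRE). The search was for GAAA, then 2 bases of any kind, then GAAA, on either strand, in RefSeq windows of 250 bases before to 50 bases after each start (GRCm38.p6). Windows were found for 29 of the 40 genes. Sequences read 5′ to 3′ on the strand of the gene, and capitals mark the match.
Trim30a: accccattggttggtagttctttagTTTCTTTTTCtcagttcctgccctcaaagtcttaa
Trim30d: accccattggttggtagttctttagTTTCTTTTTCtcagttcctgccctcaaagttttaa
Trim12c: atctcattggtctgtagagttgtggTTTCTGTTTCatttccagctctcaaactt
Trim34a: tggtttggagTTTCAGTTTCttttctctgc
Trim21: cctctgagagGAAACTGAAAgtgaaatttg
Trim26: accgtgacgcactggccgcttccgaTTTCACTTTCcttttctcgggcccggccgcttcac

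The Trim30a stretch lies at chr7:104465195-104465254 on the minus strand and the Trim30d stretch at chr7:104507856-104507915 on the minus strand. These 60-base stretches differ at 1 position, and the match starts at base -36 of Trim30a and at base -41 of Trim30d, counted from the start. The Trim12c stretch is chr7:104353350-104353403 on the minus strand, with the match at base -29. In Trim34a (chr7:104244457-104244486, plus strand) and Trim21 (chr7:102565450-102565479, minus strand) the match falls just after the start, at bases 11 and 14. The Trim26 stretch is chr17:36836961-36837020 on the plus strand, with the match at base -160. Trim21 and Trim26 each hold a second match that overlaps the one shown, and Trim30a has a further window, at another start, with a match at base 3.

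The ISRE letters occurred in 8 of 41 TRIM windows, belonging to 7 of 29 genes, against 3.44% of the 32851 windows of all genes. Among the 9 TRIM genes that rose with LPS (below), 4 held a match (Trim30a, Trim30d, Trim12c and Trim34a), and among the 20 others with a window 3 did (Trim2, Trim21 and Trim26). The stretches of Trim30a and Trim30d are near-copies and do not count as separate observations. The share with a match among all genes that rose with LPS was not computed. The letters TTCNNNGAA (the gamma-activated site, GAS, which reads alike on both strands) occurred in 3 of 41 TRIM windows and in 8.30% of all windows. These 3 windows belong to 3 of the 29 genes, Trim30c, Trim45 and Trim46. The letters GGG, 2 bases of any kind and TTTCC (an NF-kB site, either strand) occurred in 0 of the 41 TRIM windows and in 1.63% of all windows. A match describes letters in these windows and is no evidence of binding.

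The label of the cells was checked with markers. Of 8 macrophage markers, 7 had rows, each averaging over 10 CPM, while Adgre1 had no row among those analysed here. Their summed level was 3846 to 4065 CPM in LPS+MP libraries, 5756 to 6170 CPM in LPS libraries, 5407 to 5764 CPM in MP libraries and 5357 to 5939 CPM in control libraries. No T cell, B cell or epithelial marker had a row, and of 4 fibroblast markers only Pdgfra had one, at 6.90 to 7.97, 7.67 to 10.8, 1.99 to 2.35 and 1.00 to 1.64 CPM in those same groups. The part of these shifts in the results below was not tested. LPS replicate 2 stood apart from the other LPS libraries: its deviation over 39 TRIM genes was negatively related to transcript GC content (Spearman's rho -0.69, a description across genes of 1 library), and 6 TRIM genes differed by more than 0.5 log2 units from the mean of LPS replicates 1 and 3. Those were Trim46 (-0.89), Trim29 (-0.86), Trim36 (-0.62), Trim59 (0.76), Trim30a (0.52) and Trim12c (0.51). For these 6 genes, values without that library are given where it enters the comparison.

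Changes were tested with limma on log2(CPM + 1) over all 11745 genes, and rose and fell are used where the Benjamini-Hochberg adjusted p was under 0.05 and the fold change over 2. With LPS, 14 of 40 TRIM genes were called (35%), against 16.3% of all genes tested: 9 rose (all genes 8.3%) and 5 fell (all genes 8.05%). Trim30b and Trim30d, which passed the filter only through libraries with LPS, are among the rises here and in LPS+MP against MP. With MP, 3 of 40 were called (7.5%), against 3.67% of all genes: Trim46 rose (all genes 1.82%), and Trim29 and Trim65 fell (all genes 1.85%). When LPS was added to MP-treated cells (LPS+MP against MP), 11 of 40 were called (27.5%), against 13.6% of all genes, 9 of them upward (all genes 5.71%) and 2 downward (all genes 7.88%). When MP was added to LPS-treated cells (LPS+MP against LPS), Trim59 was the 1 gene called, and it fell (2.5% of TRIM genes, against 4.52% of all genes called, 3.89% that fell and 0.63% that rose). After quantile normalization Trim36 was called instead and rose, and of all 11745 genes 470 were then called, of which 129 rose. The median TRIM log2 fold change was 0.09 for LPS, 0.04 for MP, -0.04 for LPS+MP against MP and -0.06 for LPS+MP against LPS, beside medians over all genes of -0.08, 0.02, -0.14 and -0.05 in the same comparisons. Groups without overlap, named below for single genes, were common in the whole table. With LPS, 40% of TRIM genes lay fully above and 32.5% fully below (all rows 27.3% and 36.9%). With MP the shares were 27.5% and 32.5% (all rows 30.9% and 28.1%). In LPS+MP against MP they were 35% and 35% (all rows 24.0% and 44.6%). In LPS+MP against LPS they were 12.5% and 22.5% (all rows 17.4% and 26.5%). RNA came from whole cultures, so that fewer cells of a type and less RNA per cell cannot be told apart.

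**Figure D1:**
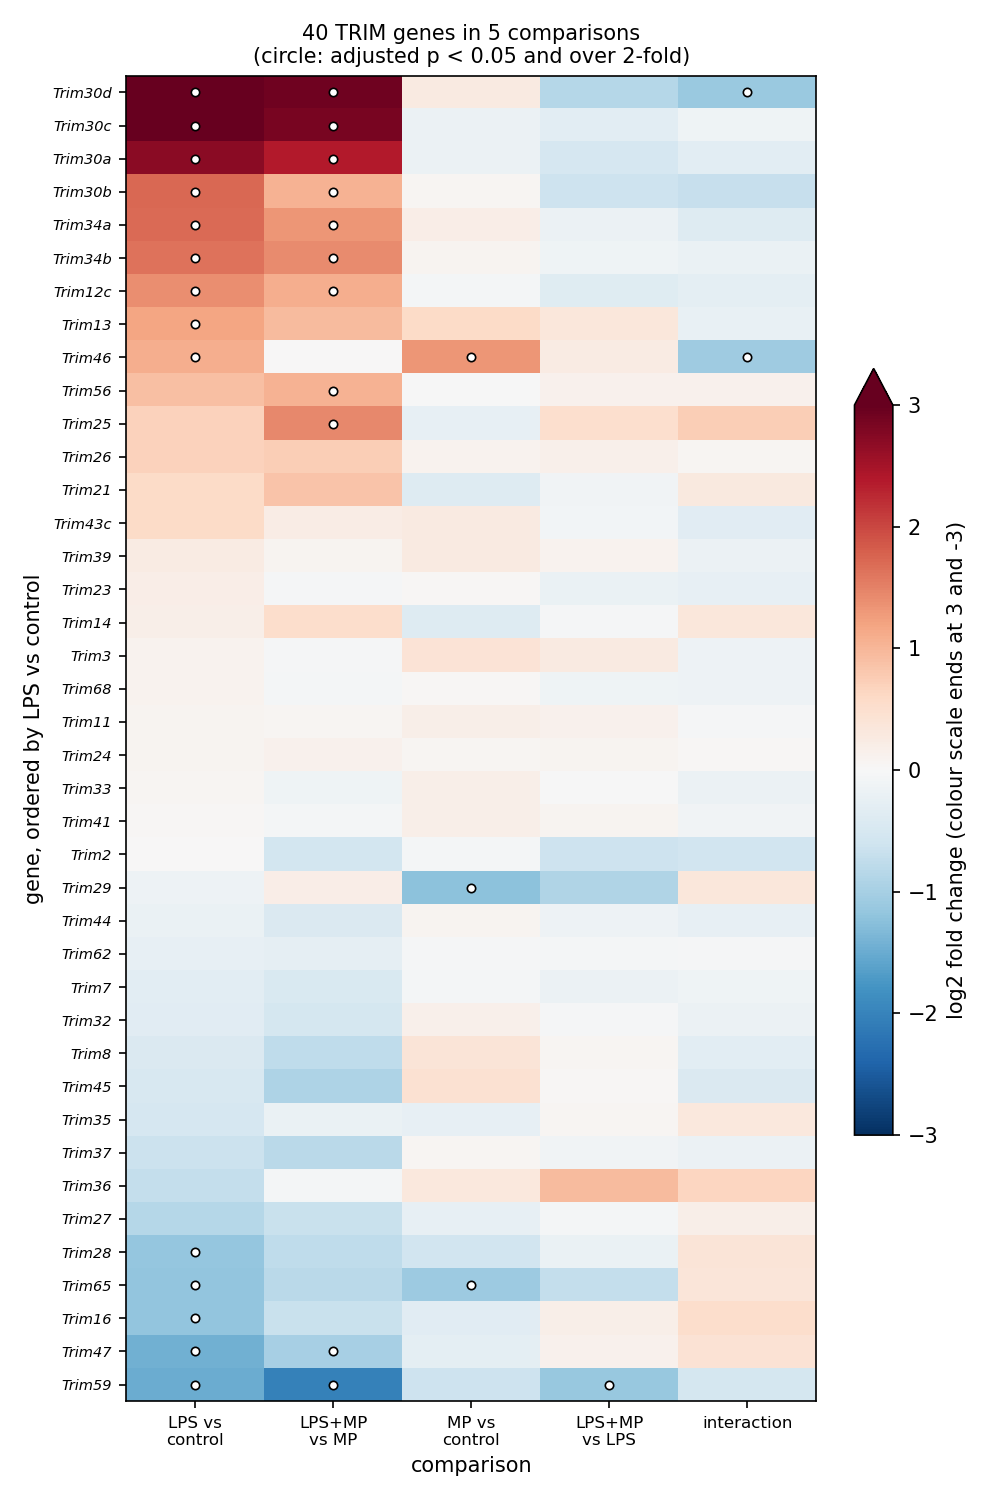
Log2 fold change of log2(CPM + 1) for each of the 40 TRIM genes (rows, ordered by the LPS effect) in 5 comparisons (columns), with red for higher, blue for lower, and a circle where a gene was called. The 9 genes that rose with LPS sit at the upper end, led by Trim30d at 4.04, and Trim59 at -1.50 is at the lower end.

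The largest LPS rises in the family came from a cluster on chromosome 7. The deposited coordinates place Trim34a, Trim34b, Trim12c, Trim30b, Trim30c, Trim30a and Trim30d between positions 104244457 and 104507849. Trim34a and Trim34b lie on the plus strand and the other 5 on the minus strand. The table names no build, but 7027 of its 11762 rows have the start and end of GENCODE M21 (GRCm38). These genes encode relatives of primate TRIM5, a restriction factor of retroviruses that has a carboxy-terminal PRY-SPRY domain. The coding sequence of the Trim30b transcript used here had 567 bases, against 1455 to 1539 for the other cluster genes. Whether that transcript encodes the PRY-SPRY domain was not examined. Each of these 7 genes rose with LPS, by a median of 1.73 log2 units, and each rose in LPS+MP against MP, by a median of 1.42. Trim30b and Trim30d among them passed the filter only through libraries with LPS, which favoured such a rise.

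Trim30a encodes a ligase that in mouse macrophages limits TLR-driven NF-kB signalling. Its level was 213, 216 and 191 CPM in LPS+MP libraries, 269, 371 and 248 CPM in LPS libraries, 39.2, 37.9 and 38.8 CPM in MP libraries, and 43.4, 43.4 and 44.6 CPM in control libraries. The libraries with LPS lay far above those without, with no overlap. The rise with LPS was 6.54-fold (log2 2.71 ± 0.11, SE; adjusted p = 1.22e-11), and in LPS+MP against MP it was 5.23-fold (log2 2.39 ± 0.11; adjusted p = 4.7e-11). All 3 LPS+MP libraries were below all 3 LPS libraries, a log2 difference of -0.50 ± 0.11 (adjusted p = 0.0029) that was under the 2-fold threshold. Without LPS replicate 2, its highest library, the rise with LPS was 2.54 and the difference of LPS+MP against LPS was -0.33 (adjusted p = 0.000602).

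Trim30d, whose mouse product (TRIM79α) restricts tick-borne flaviviruses, was near 0 CPM without LPS and was measured in every library with it. It had 10.8, 9.002 and 6.94 CPM in LPS+MP libraries, 17.3, 19.3 and 13.7 CPM in LPS libraries, 0.0988, 0.393 and 0.403 CPM in MP libraries, and 0.0602, 0.103 and 0.0353 CPM in control libraries. Every LPS library exceeded every LPS+MP library, and both groups exceeded all libraries without LPS. The log2 rise was 4.04 ± 0.18 with LPS (adjusted p = 2.25e-11) and 2.92 ± 0.18 in LPS+MP against MP (adjusted p = 1.04e-09). For levels this near 0 the size depends on the pseudocount: with 0.1 in place of 1 the same log2 rises were 6.67 and 4.60.

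Trim30c is a further Trim30 paralog. It had 16.3, 12.6 and 12.9 CPM in LPS+MP libraries, 19.2, 18.6 and 14.7 CPM in LPS libraries, 0.941, 1.10 and 1.11 CPM in MP libraries, and 1.43, 1.15 and 1.36 CPM in control libraries. Both groups with LPS were separated from both groups without, while LPS+MP and LPS libraries overlapped. The log2 rise was 2.99 ± 0.14 with LPS (adjusted p = 6.62e-11) and 2.86 ± 0.14 in LPS+MP against MP (adjusted p = 1.12e-10). Trim30b, the Trim30 paralog with the lowest level per kb under LPS, had 3.53, 3.18 and 2.24 CPM in LPS+MP libraries, 5.64, 5.93 and 3.93 CPM in LPS libraries, 0.891, 0.785 and 1.06 CPM in MP libraries, and 1.03, 0.681 and 0.809 CPM in control libraries. Its log2 rise was 1.73 ± 0.18 with LPS (adjusted p = 4.95e-07) and 1.05 ± 0.18 in LPS+MP against MP (adjusted p = 0.000118). The second of these fell under 2-fold without MP replicate 2 (1.00) or without LPS+MP replicate 1 (0.95).

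Trim34a and Trim34b are close copies of each other; human TRIM34 acts with TRIM5 against primate lentiviruses. Trim34a had 11.2, 13.3 and 12.4 CPM in LPS+MP libraries, 14.5, 16.7 and 11.4 CPM in LPS libraries, 4.41, 4.69 and 3.81 CPM in MP libraries, and 3.45, 3.68 and 3.68 CPM in control libraries. Trim34b had 15.5, 17.7 and 19.3 CPM in LPS+MP libraries, 21.8, 17.0 and 18.7 CPM in LPS libraries, 5.45, 6.04 and 6.28 CPM in MP libraries, and 6.13, 5.43 and 5.05 CPM in control libraries. For both, LPS+MP and LPS libraries overlapped and stood above all others. The log2 rise with LPS was 1.71 ± 0.14 for Trim34a (adjusted p = 4.09e-08) and 1.62 ± 0.13 for Trim34b (adjusted p = 2.26e-08). In LPS+MP against MP it was 1.33 ± 0.14 for Trim34a (adjusted p = 8.9e-07) and 1.42 ± 0.13 for Trim34b (adjusted p = 1.25e-07).

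Trim12c is counted among the mouse relatives of TRIM5. It had 56.6, 58.6 and 51.6 CPM in LPS+MP libraries, 66.4, 91.2 and 61.3 CPM in LPS libraries, 26.2, 24.1 and 26.7 CPM in MP libraries, and 29.2, 27.3 and 24.6 CPM in control libraries. The LPS+MP libraries lay just below the LPS libraries, and both lay above the rest. Its log2 rise was 1.38 ± 0.12 with LPS (adjusted p = 1.04e-07) and 1.09 ± 0.12 in LPS+MP against MP (adjusted p = 1.98e-06). Without LPS replicate 2 the rise with LPS was 1.21.

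**Figure D2:**
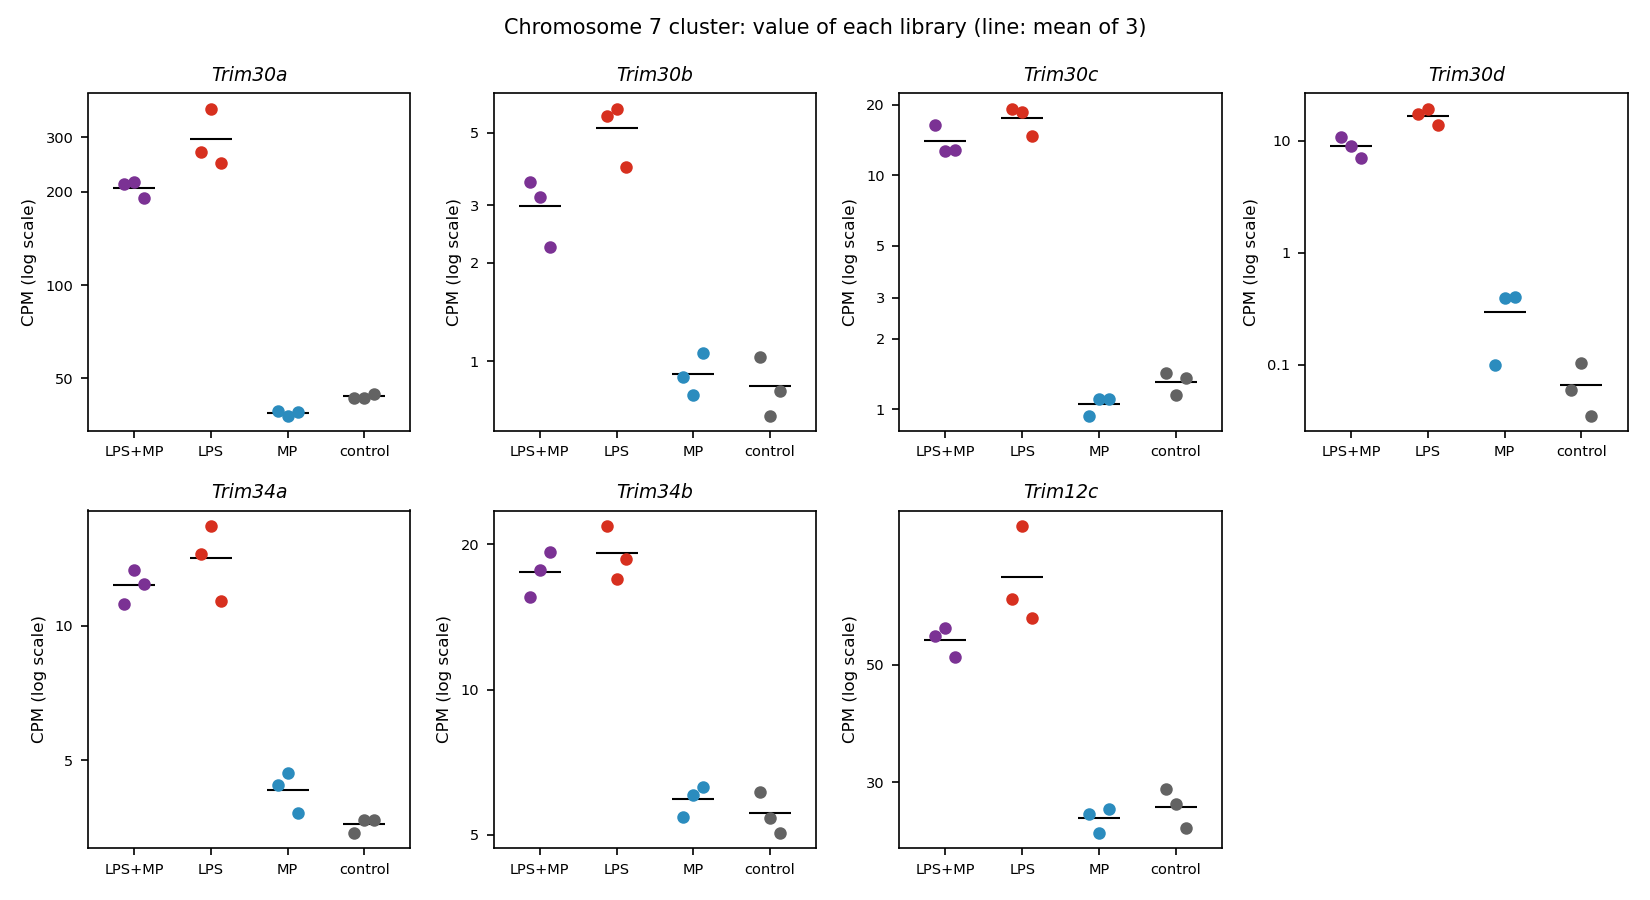
CPM (log scale) of each library for the 7 genes of the chromosome 7 cluster, in the order LPS+MP, LPS, MP and control, with 1 point for a library and a line for the mean of 3. In every panel the 6 libraries with LPS lie above the 6 without, and for Trim30d the means are 8.91 and 16.7 CPM against 0.298 and 0.0663 CPM.

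With microparticles alone, log2 differences of the cluster genes against control lay between -0.18 ± 0.11 for Trim30a (adjusted p = 0.231) and 0.28 ± 0.18 for Trim30d (adjusted p = 0.234). With a pseudocount of 0.1, Trim30d was called as a rise with MP (log2 1.16; adjusted p = 0.0168), from levels below 1 CPM in all 6 of these libraries. In LPS+MP against LPS all 7 estimates were negative, between -0.12 ± 0.13 (Trim34b, adjusted p = 0.489) and -0.85 ± 0.18 (Trim30d, adjusted p = 0.00171), with a median of -0.37 beside -0.05 over all genes. They were also all negative after quantile normalization and after median-ratio scaling. Of these, Trim30a, Trim30b (-0.63 ± 0.18, adjusted p = 0.0123), Trim12c (-0.37 ± 0.12, adjusted p = 0.031) and Trim30d had an adjusted p under 0.05, and each was below 2-fold. Without LPS replicate 2 the value of Trim12c was -0.20 (adjusted p = 0.0809). This comparison shares its LPS libraries with that of LPS against control, so a high LPS library moves both.

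Reads of these neighbours can be assigned to the wrong copy. The coding sequences of Trim34a and Trim34b in GENCODE M21 were 98.8% identical, and 41.3% of the 50-base words of the Trim34a transcript and 59.0% of those of Trim34b occurred in the other. Trim30a and Trim30d were 90.2% identical in coding sequence, and 13.1% of the words of Trim30d occurred in Trim30a. Words were compared only between TRIM transcripts with a row, so without Trim5, Trim6 and Trim12a. Within that set the share found in any other transcript was 0.731% for Trim30b, 0.660% for Trim30c and 0 for Trim12c. The split of reads between Trim34a and Trim34b is therefore uncertain, and that between Trim30a and Trim30d in part. Whether Trim12c shares words with neighbours that have no row was not examined.

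Among the members that act on sensors of viral nucleic acid, Trim25 had the highest level per kb in every group. TRIM25 attaches ubiquitin chains in the pathway of RIG-I, the sensor of viral RNA. Trim25 had 736, 730 and 700 CPM in LPS+MP libraries, 522, 522 and 488 CPM in LPS libraries, 259, 273 and 265 CPM in MP libraries, and 314, 322 and 310 CPM in control libraries. The 4 groups did not overlap, and LPS+MP was the highest. Trim25 rose 2.71-fold in LPS+MP against MP (log2 1.44 ± 0.06; adjusted p = 1.17e-11). Its difference in LPS against control was 0.69 ± 0.06 (adjusted p = 7.91e-08), in LPS+MP against LPS 0.50 ± 0.06 (adjusted p = 1.27e-05) and in MP against control -0.25 ± 0.06 (adjusted p = 0.00431), all under 2-fold. The interaction, the MP effect with LPS minus the MP effect without LPS, was 0.75 ± 0.08 (adjusted p = 1.94e-05): MP was accompanied by more Trim25 mRNA in the presence of LPS and by less in its absence.

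Trim56 encodes a ligase that acts in signalling from double-stranded RNA and cytosolic DNA. It had 109, 109 and 106 CPM in LPS+MP libraries, 104, 96.5 and 98.0 CPM in LPS libraries, 50.03, 53.6 and 52.6 CPM in MP libraries, and 48.4, 54.1 and 55.1 CPM in control libraries. The LPS+MP libraries were all above the LPS libraries, and MP and control libraries overlapped. Trim56 rose by 1.04 ± 0.07 log2 units in LPS+MP against MP (adjusted p = 4.74e-09), and its LPS difference was 0.91 ± 0.07 (adjusted p = 2.22e-08), just short of 2-fold. Its interaction was 0.13 ± 0.10 (adjusted p = 0.379).

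Trim65, a ligase of the RNA sensor MDA5, fell with each agent. It had 3.80, 2.74 and 2.64 CPM in LPS+MP libraries, 6.10, 6.88 and 4.16 CPM in LPS libraries, 4.33, 6.82 and 7.37 CPM in MP libraries, and 14.4, 14.0 and 13.4 CPM in control libraries. Control libraries were at least 13.4 CPM, and every other library was below 7.4 CPM. The fall was -1.18 ± 0.19 log2 units with LPS (adjusted p = 6.56e-05) and -1.08 ± 0.19 with MP (adjusted p = 0.000373). LPS+MP against LPS gave -0.71 ± 0.19 (adjusted p = 0.00901) and LPS+MP against MP gave -0.81 ± 0.19 (adjusted p = 0.00204). The calls are close to the threshold: without LPS replicate 3 the LPS value was -0.997, and without MP replicate 1 the MP value was -0.88. The Trim65 transcript shares 3.82% of its exon bases with Trim47 on the same strand.

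Trim13, an endoplasmic reticulum ligase, rose with LPS. It had 12.7, 15.3 and 11.1 CPM in LPS+MP libraries, 10.2, 10.7 and 9.03 CPM in LPS libraries, 6.12, 5.60 and 6.96 CPM in MP libraries, and 4.22, 2.90 and 4.67 CPM in control libraries. The 4 groups did not overlap. The LPS rise was 1.17 ± 0.16 log2 units (adjusted p = 1.06e-05), the MP difference was 0.57 ± 0.16 (adjusted p = 0.0106) and LPS+MP against MP gave 0.95 ± 0.16 (adjusted p = 0.000102).

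Several other members linked to antiviral signalling had differences with an adjusted p under 0.05 that were under 2-fold. Trim26, an abundant ligase that acts on interferon beta signalling, averaged 152 ± 5.33 CPM in LPS+MP, 136 ± 12.4 CPM in LPS, 91.0 ± 4.61 CPM in MP and 84.0 ± 4.35 CPM in control cells (SD, n = 3 each). Its log2 difference was 0.68 ± 0.08 with LPS (adjusted p = 1.6e-06) and 0.73 ± 0.08 in LPS+MP against MP (adjusted p = 8.82e-07). Trim21, the cytosolic receptor for antibody-coated viruses, averaged 19.3 ± 1.62 CPM in LPS+MP, 20.8 ± 2.38 CPM in LPS, 10.2 ± 1.71 CPM in MP and 13.6 ± 1.94 CPM in control cells. The Trim21 difference was 0.58 ± 0.14 with LPS (adjusted p = 0.00172) and 0.87 ± 0.14 in LPS+MP against MP (adjusted p = 6.17e-05). Both genes hold the overlapping ISRE letters printed above. Trim14, an adaptor of MAVS, gave 0.53 ± 0.11 in LPS+MP against MP (adjusted p = 0.00077) and -0.38 ± 0.11 in MP against control (adjusted p = 0.0128); 31.3% of its exon bases lie opposite Nans, and whether reads were counted by strand is not stated.

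Trim46 and Trim29 were the members that set MP-treated cells apart from control cells, beside Trim65. Trim46, known for bundling microtubules in the axons of neurons, had 21.9, 23.3 and 20.5 CPM in LPS+MP libraries, 22.8, 11.8 and 22.4 CPM in LPS libraries, 22.0, 20.99 and 22.1 CPM in MP libraries, and 9.02, 7.62 and 7.65 CPM in control libraries. Except for LPS replicate 2, every exposed library was near 22 CPM, and no exposed library reached down to the control level. Trim46 rose 2.50-fold with MP (log2 1.32 ± 0.18; adjusted p = 4.57e-05) and 2.12-fold with LPS (log2 1.09 ± 0.18; adjusted p = 9.4e-05). LPS+MP against MP was 0.01 ± 0.18 (adjusted p = 0.96) and LPS+MP against LPS was 0.25 ± 0.18 (adjusted p = 0.308). The interaction was called, at -1.07 ± 0.26 (adjusted p = 0.00749). The rise with LPS fell under 2-fold without LPS replicate 1 (0.93) or without LPS replicate 3 (0.94), and the interaction then stood at -0.92 and -0.93. Without LPS replicate 2, the low library, the rise with LPS was 1.38, LPS+MP against LPS was -0.05 (adjusted p = 0.743) and the interaction was -1.37 (adjusted p = 2.79e-07). Of the exon bases of Trim46, 6.30% lie opposite Krtcap2.

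Trim29, which lacks a RING finger and restrains innate signalling in mouse alveolar macrophages, went the other way. It had 8.71, 9.48 and 10.1 CPM in LPS+MP libraries, 25.7, 12.1 and 20.2 CPM in LPS libraries, 8.42, 8.35 and 7.62 CPM in MP libraries, and 21.5, 19.6 and 20.5 CPM in control libraries. All 6 libraries that received MP were below all 6 that did not. Trim29 fell 2.36-fold with MP (log2 -1.24 ± 0.18; adjusted p = 9.9e-05). LPS+MP against LPS gave -0.90 ± 0.18 (adjusted p = 0.0015), under 2-fold, and without LPS replicate 2 it gave -1.19 (adjusted p = 7.95e-08), past the threshold. With LPS alone the difference was -0.14 ± 0.18 (adjusted p = 0.526), and the interaction was 0.33 ± 0.26 (adjusted p = 0.388). Without LPS replicate 2 these values were 0.14 (adjusted p = 0.28) and 0.05 (adjusted p = 0.85).

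The largest TRIM falls belonged to Trim59, which encodes a membrane-anchored member linked to cell proliferation. It had 12.1, 11.9 and 10.5 CPM in LPS+MP libraries, 20.2, 38.2 and 24.3 CPM in LPS libraries, 53.9, 48.4 and 47.5 CPM in MP libraries, and 82.1, 79.7 and 69.5 CPM in control libraries. The groups formed 4 separate steps, with LPS+MP lowest and control highest. Trim59 fell by 1.497 log2 units with LPS (SE 0.16; adjusted p = 1.08e-06) and by 2.03 in LPS+MP against MP (4.08-fold, SE 0.16; adjusted p = 3.66e-08). Without LPS replicate 2 the fall with LPS was -1.75. With MP the difference was -0.61 ± 0.16 (adjusted p = 0.00781). In LPS+MP against LPS it fell by 1.14 (SE 0.16; adjusted p = 6.87e-05), and without LPS replicate 2, the highest of the LPS libraries, the value was -0.89 (adjusted p = 4.41e-07), no longer over 2-fold.

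Trim28, also known as KAP1, is the corepressor that silences retroelements and other targets of KRAB zinc finger proteins. It had 140, 159 and 169 CPM in LPS+MP libraries, 193, 152 and 195 CPM in LPS libraries, 256, 265 and 277 CPM in MP libraries, and 392, 398 and 405 CPM in control libraries. The MP libraries lay between the control libraries and those with LPS. Trim28 fell by 1.15 log2 units with LPS (SE 0.09; adjusted p = 3.53e-08), and its differences were -0.58 ± 0.09 with MP (adjusted p = 0.000185) and -0.77 ± 0.09 in LPS+MP against MP (adjusted p = 4.29e-06). The other transcriptional members with a PHD finger and bromodomain, Trim24 and Trim33, had no adjusted p under 0.05 in any of the 5 comparisons. Trim24 averaged 26.8 ± 1.43 CPM in LPS+MP, 25.1 ± 2.24 CPM in LPS, 24.6 ± 2.11 CPM in MP and 23.5 ± 0.658 CPM in control cells (SD, n = 3 each). Trim33 averaged 61.8 ± 1.78 CPM in LPS+MP, 62.8 ± 4.75 CPM in LPS, 68.0 ± 8.40 CPM in MP and 60.4 ± 5.65 CPM in control cells.

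Trim47 had 13.7, 15.5 and 15.3 CPM in LPS+MP libraries, 13.8, 12.6 and 13.7 CPM in LPS libraries, 29.2, 28.6 and 34.5 CPM in MP libraries, and 36.2, 39.0 and 38.6 CPM in control libraries. It fell by 1.44 log2 units with LPS (SE 0.10; adjusted p = 4.58e-09). In LPS+MP against MP it fell by 1.00 (SE 0.10; adjusted p = 3.67e-07), a call that ended without MP replicate 3 (-0.92) or LPS+MP replicate 1 (-0.95) and under both other scalings (-0.78 with quantile normalization and -0.87 with median-ratio scaling). Trim47 and Trim65 are neighbours on chromosome 11, and 8.23% of the exon bases of Trim47 overlap Trim65 on the same strand. Trim16, which in human cells takes part in the autophagy of damaged lysosomes, had 5.96, 6.74 and 5.86 CPM in LPS+MP libraries, 6.17, 4.55 and 5.52 CPM in LPS libraries, 11.02, 9.20 and 10.8 CPM in MP libraries, and 13.1, 13.9 and 13.3 CPM in control libraries. Libraries with LPS were separated from those without. Trim16 fell by 1.18 log2 units with LPS (SE 0.13; adjusted p = 8.56e-07), and LPS+MP against MP gave -0.66 ± 0.13 (adjusted p = 0.000374).

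**Figure D3:**
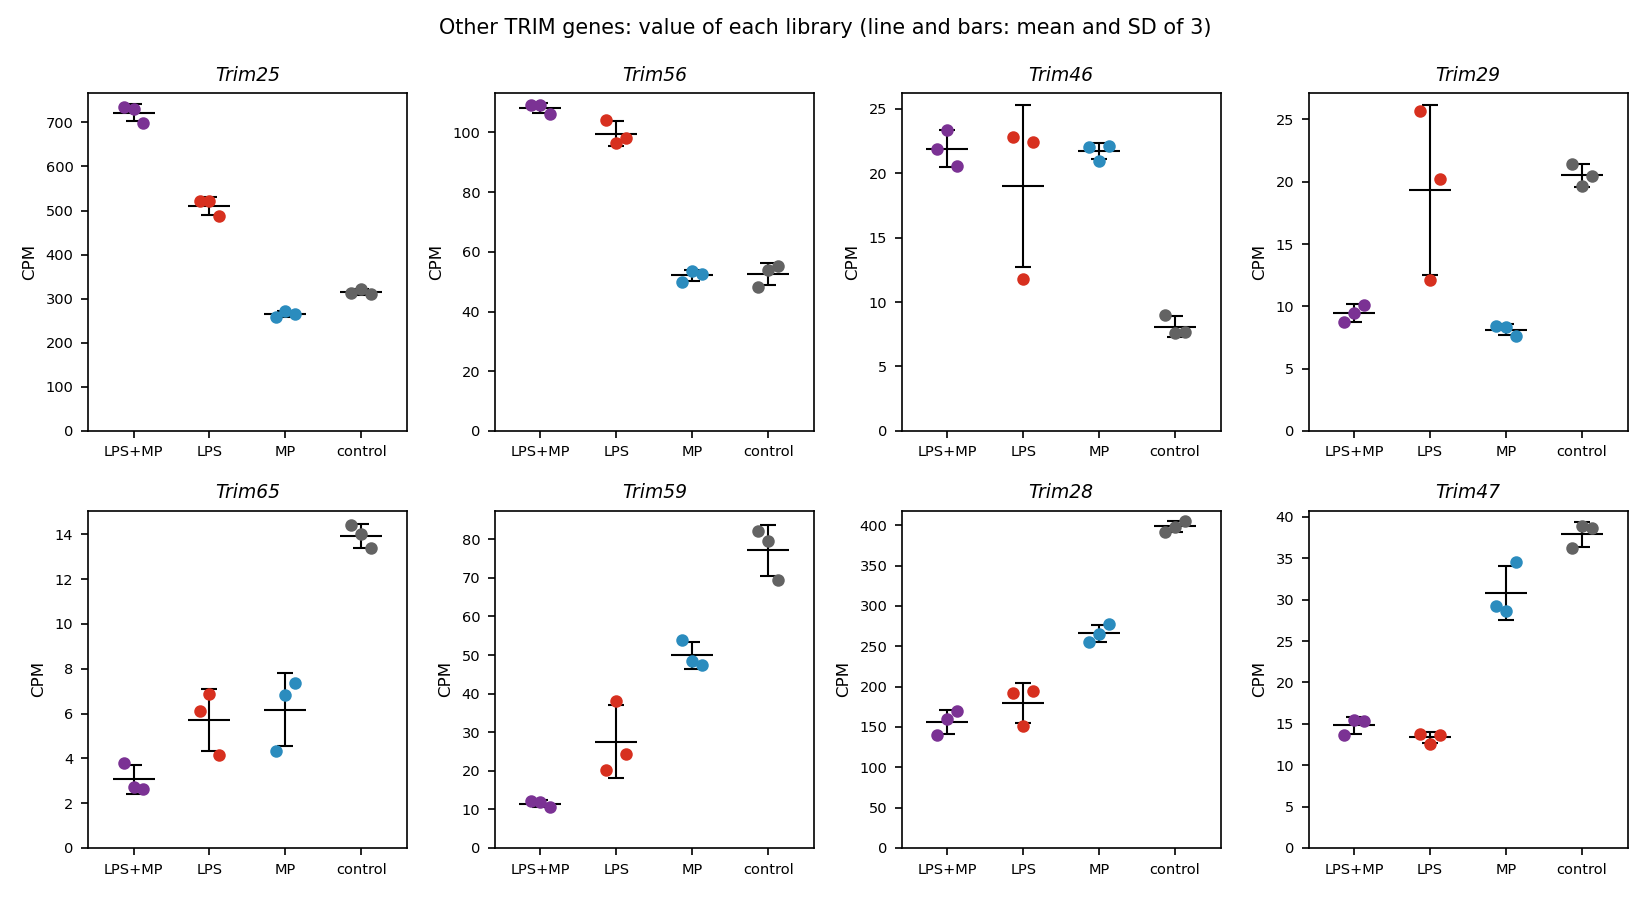
CPM (linear scale from 0) of each library for Trim25, Trim56, Trim46, Trim29, Trim65, Trim59, Trim28 and Trim47, in the order LPS+MP, LPS, MP and control, with lines for the mean and bars for the SD of 3 libraries. Trim25 is highest in LPS+MP cells (722 CPM on average, against 316 CPM in control cells), and Trim59 is lowest there (11.5 CPM, against 77.1 CPM).

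The remaining members were called in none of the comparisons. Trim8, which aids NF-kB activation downstream of TNF, averaged 132 ± 1.18 CPM in LPS+MP, 128 ± 22.4 CPM in LPS, 225 ± 6.82 CPM in MP and 172 ± 3.82 CPM in control cells. Its differences had opposite signs for the agents, 0.39 ± 0.10 with MP (adjusted p = 0.00572) and -0.43 ± 0.10 with LPS (adjusted p = 0.00122; -0.28 without LPS replicate 2). Trim45 gave values of the same kind, with 0.45 ± 0.11 for MP (adjusted p = 0.00437) and -0.49 ± 0.11 for LPS (adjusted p = 0.00115), and LPS+MP against MP came to -0.92 ± 0.11 (adjusted p = 3.66e-06). Trim36 averaged 2.87 ± 0.382 CPM in LPS+MP, 1.02 ± 0.481 CPM in LPS, 3.05 ± 0.201 CPM in MP and 2.27 ± 0.371 CPM in control cells. Its LPS+MP libraries were all above its LPS libraries, at 0.96 ± 0.18 log2 units (adjusted p = 0.000813), just under 2-fold. That difference was 0.75 without LPS replicate 2, its lowest library, and passed 2-fold on leaving out LPS replicate 1 (1.03), or the third replicate of LPS (1.10) or of LPS+MP (1.02).

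Further members of known function had LPS differences that were negative and under 2-fold. Trim27, a partner of the retromer-associated WASH complex, gave -0.85 ± 0.10 (adjusted p = 2.95e-06). Trim37, which acts in centrosome assembly, gave -0.64 ± 0.11 (adjusted p = 0.000108), and the abundant Trim35 gave -0.51 ± 0.06 (adjusted p = 1.52e-06). Trim32, a ligase mutated in limb-girdle muscular dystrophy, gave -0.35 ± 0.08 (adjusted p = 0.00192). Besides Trim24 and Trim33, the genes Trim11, Trim23, Trim41, Trim62 and Trim68 had no adjusted p under 0.05 in any comparison. Of the family, 28 of 40 genes had an adjusted p under 0.05 for LPS whatever the fold (62.1% of all genes), 16 for MP (38.9% of all genes), 27 in LPS+MP against MP (55.6%) and 11 in LPS+MP against LPS (35.2%).

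The effect of LPS in the presence of MP was set beside its effect in the absence of MP, a pair of comparisons with no library in common. Of the 14 genes called with LPS and the 11 called in LPS+MP against MP, 9 were shared: the 7 cluster genes, Trim59 and Trim47 (64.3% of the 14 and 81.8% of the 11). Trim30b and Trim30d are among these and passed the filter only through libraries with LPS. Over all genes 1230 were called in both in the same direction, 64.1% of the 1920 called with LPS and 77.0% of the 1597 called in LPS+MP against MP. Trim25 and Trim56 were called with MP present, and Trim13, Trim46, Trim16, Trim28 and Trim65 in its absence. A call in only 1 of both comparisons does not show that the effects differ. In limma's interaction test the adjusted p was 0.379 for Trim56, 0.511 for Trim13 and 0.347 for Trim65. It was 0.0487 for Trim16 (0.52), 0.0492 for Trim28 (0.38) and 1.94e-05 for Trim25 (0.75), each under 2-fold. For 2 genes the difference between both effects was itself called (5%, against 4.7% of all genes; both fell, against 3.68% of all genes). They were Trim30d (-1.12 ± 0.25; adjusted p = 0.00467) and Trim46 (-1.07 ± 0.26; adjusted p = 0.00749), and after quantile normalization neither reached 2-fold (-0.85 and -0.97). For Trim30d the size depends on the pseudocount, as its levels without LPS were below 1 CPM. Over all genes the median of LPS+MP against MP was -0.14, and it was -0.02 after quantile normalization and -0.01 after median-ratio scaling, so fold changes of that comparison sit on a baseline slightly below 0.

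**Figure D4:**
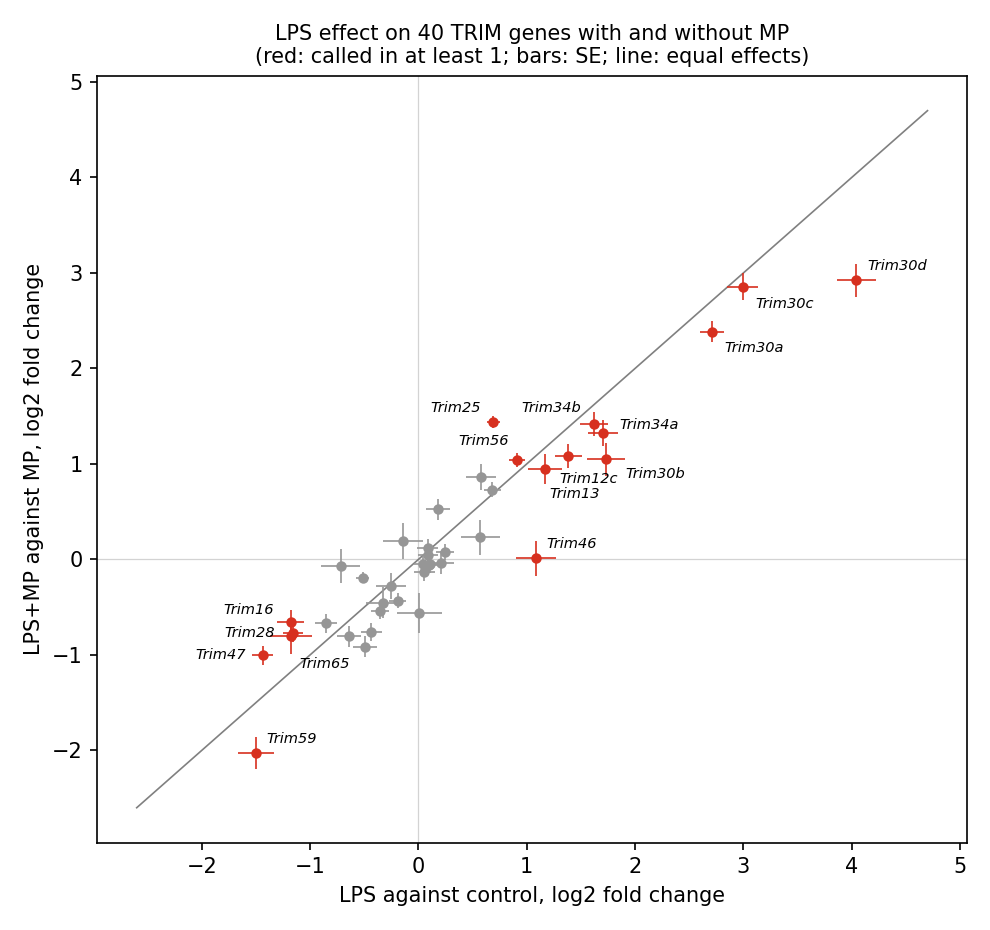
Log2 fold change of each of the 40 TRIM genes in LPS+MP against MP (vertical) and in LPS against control (horizontal), with bars for the SE, red for genes called in at least 1 of the comparisons, and a line of equal effects. Trim25 lies above the line (1.44 against 0.69), and Trim30d (2.92 against 4.04) and Trim46 (0.01 against 1.09) lie below it.

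Levels of different genes were compared per kb of transcript, for the 39 genes with a transcript in GENCODE M21. In LPS+MP cells Trim25 led with 129 ± 3.50 CPM per kb (SD, n = 3), followed by Trim30a (54.8 ± 3.59), Trim35 (52.2 ± 0.479), Trim28 (48.1 ± 4.68) and Trim26 (47.4 ± 1.67). The libraries of Trim25 lay above all of these, while the others each overlapped the next in order. In LPS cells the order was Trim25 (91.3 ± 3.57), Trim30a (78.6 ± 17.4) and Trim28 (55.4 ± 7.50 CPM per kb), and Trim25 and Trim30a overlapped through LPS replicate 2. In MP cells it was Trim28 (82.0 ± 3.32), Trim8 (62.8 ± 1.90), Trim35 (59.8 ± 0.931) and Trim25 (47.5 ± 1.21), with no overlap between neighbours. In control cells Trim28 led with 123 ± 1.97 CPM per kb, followed by Trim35 (71.2 ± 0.838), Trim25 (56.4 ± 1.11) and Trim8 (47.9 ± 1.07), also with no overlap. Trim30d was last of the 39 in control cells, at 0.0348 ± 0.0181 CPM per kb. The median TRIM gene had 7.02, 8.79, 6.95 and 7.22 CPM per kb in LPS+MP, LPS, MP and control cells, beside 9.87, 10.5, 10.98 and 10.8 for all genes.

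The genes that TRIM proteins work with were read from lists. Of 20 genes of cytosolic RNA and DNA sensing, 8 rose with LPS and 7 in LPS+MP against MP, with list medians of 0.67 and 0.66 log2 units. Of all genes tested, 8.3% and 5.71% rose in these comparisons, and their medians were -0.08 and -0.14. Irf7, the interferon-inducible transcription factor, rose by 6.44 ± 0.12 with LPS (adjusted p = 8.74e-16), Ifi204, a DNA sensor, by 4.54 ± 0.13 (adjusted p = 1.96e-13), and Ddx58, which encodes RIG-I, by 3.22 ± 0.09 (adjusted p = 1.52e-13). Ifih1, which encodes MDA5, rose by 2.82 ± 0.09 (adjusted p = 7.11e-13), in the same cells in which Trim65 fell. The 5 listed genes of ISG15, the ubiquitin-like protein, and of its attachment or removal all rose in both comparisons. Among them were Usp18, which encodes the protease that removes ISG15 (4.94 ± 0.15 with LPS, adjusted p = 2.92e-13), and Isg15 (5.80 ± 0.20, adjusted p = 1.24e-12). Of 20 type I interferon response genes, 19 rose with LPS and 19 in LPS+MP against MP, with the smallest adjusted p for LPS in Oasl1 (5.98 ± 0.10, adjusted p = 4.26e-16), Oasl2 (5.09 ± 0.10, adjusted p = 3.77e-15), Oas3 (3.28 ± 0.08, adjusted p = 1.8e-14) and Ifi44 (5.55 ± 0.15, adjusted p = 7.14e-14). The 2 that rose with MP alone, named after their values were seen, were Rsad2 (1.51 ± 0.20, adjusted p = 3.01e-05) and Ifit1 (1.24 ± 0.20, adjusted p = 0.000195). Of all genes 1.82% rose with MP. Rsad2 averaged 5.50 CPM in MP and 1.31 CPM in control cells, against 237 CPM in LPS cells. Ifit1 averaged 1.92, 0.215 and 60.9 CPM in the same order. At such low levels the size of the MP rise depends on the pseudocount.

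The ubiquitin-conjugating enzymes that RING ligases use were read in the same way. Of 20 listed genes 19 had rows, and their median was -0.06 with LPS, beside -0.08 over all genes. Ube2c and Ube2s serve the anaphase-promoting complex in mitosis. With LPS, Ube2c fell by 3.62 log2 units (SE 0.13; adjusted p = 3.23e-12) and Ube2s fell by 1.08 (SE 0.08; adjusted p = 7.77e-09). In LPS+MP against LPS, Ube2c fell by a further 1.44 (SE 0.13; adjusted p = 8.52e-07). Pml, a TRIM protein by structure that forms nuclear bodies, rose 2.26-fold with LPS (log2 1.18 ± 0.09; adjusted p = 1.44e-08). It averaged 128 ± 2.76 CPM in LPS+MP, 167 ± 22.6 CPM in LPS, 66.0 ± 3.71 CPM in MP and 72.8 ± 2.45 CPM in control cells. Mid1, a microtubule-associated relative, averaged 95.2 ± 9.50, 127 ± 16.7, 117 ± 7.61 and 174 ± 4.92 CPM in the same groups, with differences below 2-fold throughout.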

How the data were processed

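Polyadenylated RNA of 12 J774A.1 cultures was sequenced from directional libraries, per the labels' protocols. The tools named by the submitters' processing notes are TopHat2 2.1.1, HTSeq, edgeR, DESeq2, Trimmomatic 0.36 and FastQC 11.5, without roles; genome build, annotation and strand setting are not stated in the sources used here. The deposited values are headed RPKM but were read as CPM: each column sums to between 998867 and 999273, and a deposited logCPM column, read as log2 CPM, differed from the log2 mean of the columns with an SD of 0.195, against 0.983 when lengths were multiplied in. Whole reads were not recovered (6000 steps tried, tolerance 0.05 of a step; best share whole 1 in 2 libraries and 0.148 to 0.876 in the others), so depth is unknown and no count model was fitted.

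Groups and replicate numbers came from the labels. Genes reaching 1 CPM in at least 3 libraries were kept (17 removed, 11745 tested). A model of 4 group means was fitted to log2(CPM + 1) of all 12 libraries with limma 3.58.1 (R 4.3.3) and a variance trend, with Benjamini-Hochberg adjustment over all genes of a comparison. The groups shared a common spread per gene, but the median SD was 0.19 in LPS, beside 0.085 in control, 0.098 in MP and 0.086 in LPS+MP. SE thus tend to be too small for LPS against control and LPS+MP against LPS. They tend to be too large for MP against control and LPS+MP against MP. Calls required an adjusted p under 0.05 and over 2-fold change, the thresholds of the series description. The pseudocount compresses fold changes of scarce genes. Errors after ± are SE for log2 differences and SD for levels. The procedure was tested on simulated data.

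The TRIM genes and the gene lists were chosen with earlier results of these data known. Any TRIM gene could be named; those called in at least 1 comparison are given in every library, and of each companion list up to 4 that were called, by the smallest adjusted p for LPS, with Pml and Mid1 open to naming in any comparison. Transcript lengths, shared words and exon overlaps came from GENCODE M21, and promoter windows from RefSeq (GRCm38.p6). Alternatives were other pseudocounts, filters and scalings, no fold threshold, a fit of only the compared groups, one without the variance trend, a replicate block and leaving out each library; leaving LPS replicate 2 out of comparisons that do not use it was chosen after seeing the data.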

Additional observations from a re-analysis of the deposited data

Results flagged for a closer look

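For 2 TRIM genes the effect of MP differed between cells with and without LPS by the interaction test of limma. For Trim30d the MP effect with LPS minus the MP effect without LPS was -1.12 ± 0.25 (SE; adjusted p = 0.00467). All 3 LPS+MP libraries (6.94 to 10.8 CPM) lay below all 3 LPS libraries (13.7 to 19.3 CPM), while MP libraries (0.0988 to 0.403 CPM) and control libraries (0.0353 to 0.103 CPM) were near 0. Trim30d passed the filter only through libraries with LPS. Its levels without LPS were below the pseudocount of 1, so the size of its interaction depends on the pseudocount. For Trim46 the value was -1.07 ± 0.26 (adjusted p = 0.00749): MP libraries (20.99 to 22.1 CPM) were all above control libraries (7.62 to 9.02 CPM), while LPS+MP libraries (20.5 to 23.3 CPM) overlapped LPS libraries (11.8 to 22.8 CPM). LPS replicate 2 was the low LPS library of Trim46, and without it the value was -1.37. Trim46 missed the 2-fold threshold without LPS replicate 1 (-0.92) or 3 (-0.93), Trim30d without LPS+MP replicate 3 (-0.97), and both after quantile normalization (-0.97 for Trim46 and -0.85 for Trim30d). These 2 genes are 5% of the TRIM genes, against 4.7% of all genes called for the interaction.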

How the results depend on the processing

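Among recomputed values of single genes, 559 kept their direction and side of the threshold, 17 fell short of it, 19 passed it and 0 reversed. Without a fold threshold the calls in MP against control, LPS against control, LPS+MP against LPS, LPS+MP against MP and the interaction were 16, 28, 11, 27 and 7 of 40 TRIM genes and 4570, 7297, 4138, 6527 and 2583 of all genes. With a pseudocount of 0.1, MP against control had 4 TRIM genes, Trim30d added (1.16), and LPS+MP against LPS had 3 TRIM genes (Trim36 rose, Trim59 and Trim2 fell) and 807 of all genes. With quantile normalization the interaction had 0 TRIM genes (by limma; 12 had an unadjusted p under 0.05; Trim30d stood at -0.85 and Trim46 at -0.97), and in LPS+MP against LPS Trim36 rose (1.21) while Trim59 missed the threshold (-0.99). In LPS+MP against MP both other scalings added Trim13 and Trim21 and dropped Trim47, giving 11 rises and 1 fall. Quantile normalization raised the share of rises among all calls to 27.4% in LPS+MP against LPS (13.9% as reported) and to 38.7% in the interaction (21.7%). Leaving out single libraries gave 2 to 3, 12 to 14, 1 to 2, 9 to 12 and 1 to 2 TRIM genes in the same order, and 400 to 486, 1891 to 2037, 520 to 583, 1551 to 1616 and 524 to 615 of all genes. Trim30d missed the interaction threshold without LPS+MP replicate 3 (-0.97), and Trim13 passed 2-fold in LPS+MP against MP without MP replicate 3 (1.02) or LPS+MP replicate 3 (1.06). The replicate block left the TRIM calls at 3, 14, 1, 11 and 2; same-numbered libraries had a median residual correlation of 0.018 (-0.247 to 0.158), so the numbers were not taken as pairs. A minimum of 5 CPM removed Trim30b, Trim36, Trim43c, Trim2 and Trim7. The cause of these shifts was not tested. Values near or below 1 CPM, as of Trim30b and Trim30d without LPS, limit the size of fold changes, and depth per library is unknown.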
